A study of Mus musculus with 8 samples.

Results

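The major histocompatibility complex (MHC) class II genes of the mouse and their transactivator Ciita were followed in tumors of the 4T1 mammary carcinoma line. The 10 genes were H2-Aa, H2-Ab1, H2-Eb1, H2-Ea-ps, Cd74, Ciita, H2-DMa, H2-DMb1, H2-Oa and H2-Ob. They were found by mapping Ensembl identifiers to mouse symbols, and all 10 were among the 25006 identifiers counted in each library and among the 15310 genes that passed the filter on low counts. 4T1 is a Balb/c-derived model of triple-negative breast cancer. The study asked how CD95, the death receptor encoded by Fas, on tumor cells relates to gene expression in tumors of immunodeficient and immunocompetent hosts.

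There were 4 groups of 2 libraries, defined by host and by the CD95 status of the injected cells. The NSG wild-type and Balb/c wild-type groups each held 1 tumor library of the parental line (replicate 1) and 1 of a line stably expressing vCas9 (replicate 2). The NSG knockout and Balb/c knockout groups each held 1 library of the CRISPR/Cas9 CD95 knockout clone 54 (replicate 1) and 1 of clone 69 (replicate 2). Cells were injected into the fat pad, and tumors were collected after at most 20 days. Every group thus shared the 4T1 origin and the injection site, and both knockout lines were clones. Neither wild-type line is labelled a clone, so CD95 status and clonal origin cannot be told apart between knockout and wild type. NSG mice have the NOD background and lack mature T, B and NK cells, but they keep macrophages, other myeloid cells and dendritic cells, although these are functionally impaired. Balb/c mice were the hosts with an intact immune system. Sex and age of the hosts, and whether a library came from 1 tumor or several, are not given in the labels.

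MHC class II molecules are pairs of an alpha and a beta chain that present peptides from the endosomal route to CD4 T cells. In the mouse, H2-Aa and H2-Ab1 encode the pair called I-A, and the Ea and Eb1 genes encode the pair called I-E. Cd74 is the invariant chain that occupies the groove until it is degraded, H2-DM (H2-DMa with H2-DMb1) exchanges its last fragment for peptide, and H2-DO (H2-Oa with H2-Ob) inhibits H2-DM, mainly in B cells. Ciita is a coactivator without DNA binding of its own that joins RFX, CREB and NF-Y at the X and Y boxes of these promoters. It is switched on constitutively in dendritic cells and B cells and by interferon-gamma in macrophages and many other cells.

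The strains differ at this locus. Balb/c mice, and 4T1 with them, carry the d haplotype, in which both I-A and I-E are made. The NOD background carries the g7 haplotype, in which Ea is not expressed, as in the reference strain C57BL/6. For this reason the annotation calls the Ea gene H2-Ea-ps and lists it as a polymorphic pseudogene. Reads of all libraries were counted against 1 mouse genome, so the immune status of the host and its class II alleles cannot be told apart in any comparison of hosts. In bulk tumor RNA, a change in the number of cells that express a gene and a change in RNA per cell cannot be told apart either.

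The promoters are shown because the boxes through which Ciita acts can be read in them. RefSeq promoter sequences (GRCm38.p6, 250 bases before to 50 bases after a gene's start) were matched for 6 of the 10 genes, namely H2-Aa, H2-Eb1, H2-DMa, H2-DMb1, H2-Oa and H2-Ob. A search was made on both strands for GNAAC, letters from the X box, followed on the same strand by GATTGG, the Y-box letters, with 20 to 35 bases between their starts. These letters were chosen after the sequences were seen. The arrangement was present in 5 of the 6 genes. For H2-DMa the table gave 2 windows (chr17:34122582-34122881 and chr17:34125268-34125567), neither with the arrangement, which lie inside the gene as GENCODE annotates it, so the sequence at its GENCODE start (34119541) was not searched. The arrangement was also present in 0.944% of all 32851 promoter windows of 300 bases. GATTGG alone was present in 16.1% of windows. The sequences below are 112 bases of H2-Aa (chr17:34287862-34287973, minus strand), H2-Eb1 (chr17:34305717-34305828, plus), H2-Oa (chr17:34092229-34092340, plus) and H2-Ob (chr17:34238755-34238866, plus), written 5′ to 3′ with the 2 matched boxes in capitals.
H2-Aa: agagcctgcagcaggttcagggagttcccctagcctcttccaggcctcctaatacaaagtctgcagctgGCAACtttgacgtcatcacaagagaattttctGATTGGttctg
H2-Eb1: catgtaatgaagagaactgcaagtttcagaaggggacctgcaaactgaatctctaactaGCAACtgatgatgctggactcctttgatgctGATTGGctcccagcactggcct
H2-Oa: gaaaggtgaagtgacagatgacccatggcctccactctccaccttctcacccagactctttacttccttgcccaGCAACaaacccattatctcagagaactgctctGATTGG
H2-Ob: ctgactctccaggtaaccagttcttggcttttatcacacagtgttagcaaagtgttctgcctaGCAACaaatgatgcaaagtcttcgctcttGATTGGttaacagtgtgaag
The boxes began 29 to 32 bases apart in these 4 sequences. The chains of classical class II (H2-Aa, H2-Eb1) and those of H2-DO (H2-Oa, H2-Ob) thus carried the same arrangement.

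In the GRCm38 build with the GENCODE M21 annotation, 8 of the 10 genes lie on chromosome 17. These are H2-Oa (34092340 to 34095234, plus strand), H2-DMa (34119541 to 34139101, plus), H2-DMb1 (34153072 to 34160230, plus), H2-Ob (34238903 to 34254414, plus), H2-Ab1 (34257689 to 34269419, plus), H2-Aa (34282744 to 34287823, minus), H2-Eb1 (34305867 to 34316674, plus) and H2-Ea-ps (34341959 to 34344645, minus). Ciita is on chromosome 16 (10480059 to 10528418, plus) and Cd74 on chromosome 18 (60803848 to 60812652, plus). Of stretches of 50 bases in the coding transcripts, H2-DMb1 shared 27.2% with its paralog H2-DMb2, so counts of that pair are uncertain. The other 9 genes shared 0% with any other gene.

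Libraries held between 8.68 M and 19.7 M counts, with the NSG knockout libraries the shallowest, and 3 counts corresponded to 0.159 to 0.321 CPM, the counts per M counts of a library. Fas was read in all 8 libraries and passed the threshold in neither host between knockout and wild type (edgeR adjusted p = 0.628 in NSG and 0.225 in Balb/c), so the knockout status rests on the labels. Of the lists that mark the cells a tumor can hold, epithelial markers were read in every library. T cell markers summed to 0.9 to 3.8 CPM in NSG and 168 to 199 CPM in Balb/c tumors, with no overlap. Levels below are CPM with TMM scaling, and tests are edgeR's quasi-likelihood test over all 8 libraries, with p-values adjusted over all 15310 genes and a threshold of 0.05. Nothing in the labels says that the libraries of a group were independent experiments beyond being different lines, so p-values measure the spread between these libraries. Comparisons that share a group (for example the host and knockout comparisons that both use Balb/c knockout) are not independent of each other.

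Class II transcripts were lowest in NSG tumors, intermediate in Balb/c wild-type tumors and highest in Balb/c knockout tumors for 8 of the 10 genes. The exceptions were the H2-DO chains, whose mean levels were highest in Balb/c wild-type tumors. All 10 genes together took 0.113% and 0.120% of counts in the NSG wild-type libraries and 0.0907% and 0.103% in the NSG knockout libraries. The share was 0.295% and 0.346% in the Balb/c wild-type libraries, and 1.49% (clone 54) and 0.623% (clone 69) in the Balb/c knockout libraries. The groups did not overlap in this share.

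**Figure D1:**
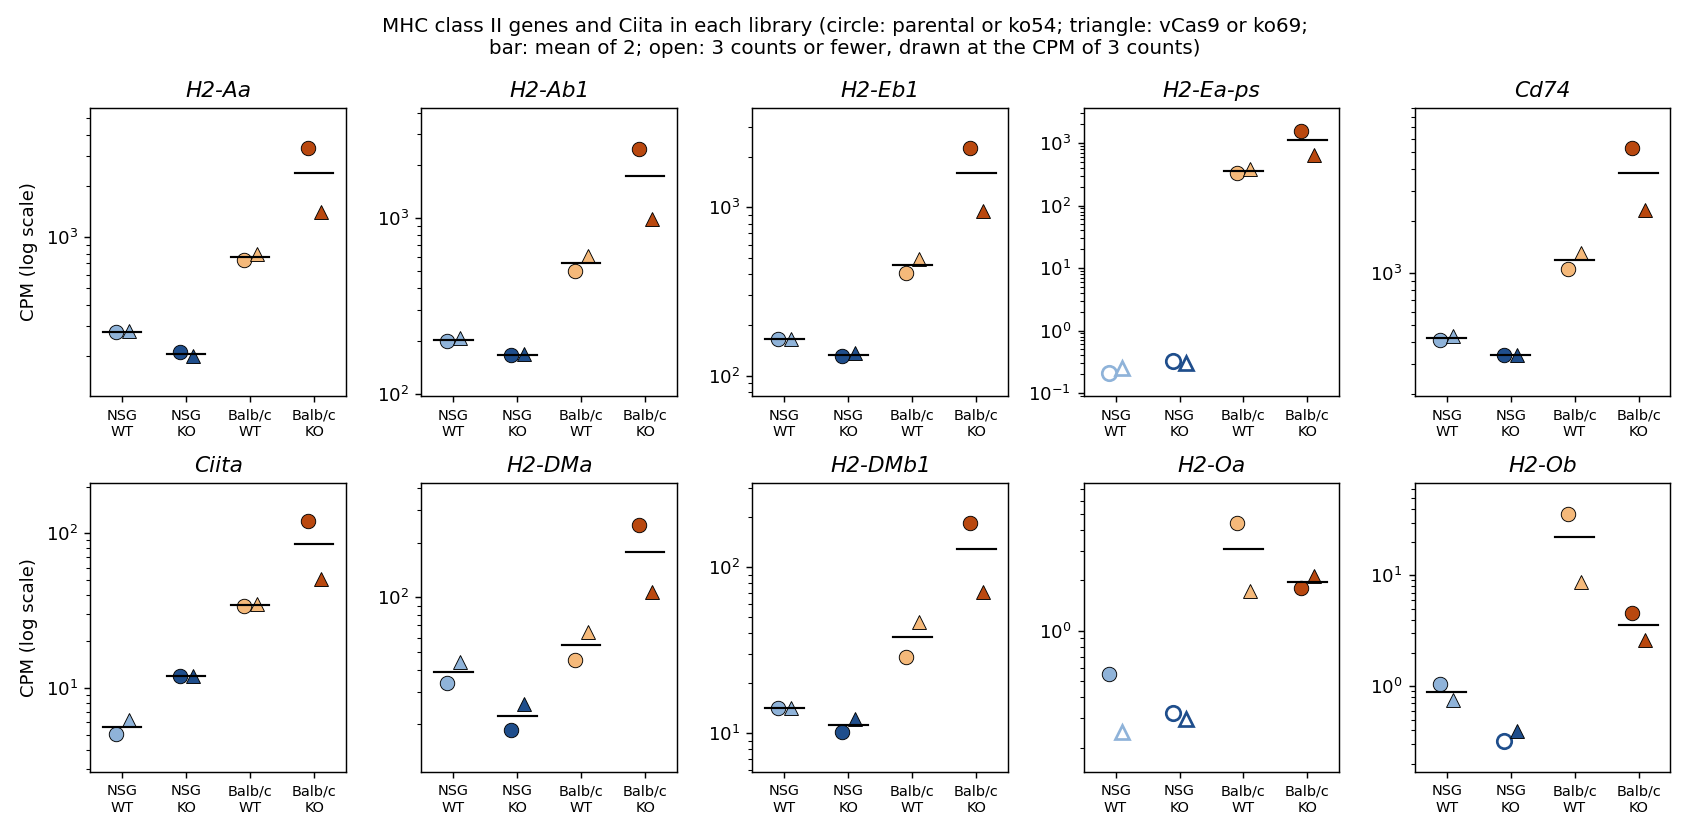
Level of each of the 10 genes in each library (y axis, CPM on a log scale; x axis, the 4 groups; circles are the parental line or clone 54, triangles the vCas9 line or clone 69, bars the mean of 2, and open symbols stand for 3 counts or fewer, drawn at the CPM of 3 counts). In Balb/c knockout tumors the clone 54 circle lies above the clone 69 triangle for every gene except H2-Oa, and H2-Ea-ps has only open symbols in NSG tumors.

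The I-A alpha chain H2-Aa was at 275 and 279 CPM in NSG wild type, 210 and 199 CPM in NSG knockout, 729 and 792 CPM in Balb/c wild type, and 3353 and 1404 CPM in Balb/c knockout. All Balb/c libraries were above all NSG libraries, and both Balb/c knockout libraries were above both Balb/c wild-type libraries. Its partner H2-Ab1 was at 200 and 207 CPM in NSG wild type, 166 and 168 CPM in NSG knockout, 501 and 606 CPM in Balb/c wild type, and 2487 and 987 CPM in Balb/c knockout, so that the order of the groups was the same. The I-E beta chain H2-Eb1 was at 164 and 165 CPM in NSG wild type, 130 and 136 CPM in NSG knockout, 408 and 497 CPM in Balb/c wild type, and 2268 and 950.2 CPM in Balb/c knockout. For these 3 chains no group overlapped another, and the libraries of a group other than Balb/c knockout lay within 1.22-fold of each other.

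H2-Ea-ps, the I-E alpha chain, followed another pattern. It had 0 counts in both NSG wild-type libraries and 0 and 1 counts in the NSG knockout libraries. Its level was 326 and 387 CPM in Balb/c wild type and 1577 and 644 CPM in Balb/c knockout. The gene was therefore at or under the floor of 3 counts in all 4 NSG libraries and among the abundant class II transcripts in all 4 Balb/c libraries.

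Cd74, the invariant chain, was at 413 and 433 CPM in NSG wild type, 337 and 336 CPM in NSG knockout, 1062 and 1312 CPM in Balb/c wild type, and 5264 and 2336 CPM in Balb/c knockout. It had the same order of groups as the I-A chains, with no overlap. Ciita was at 5.06 and 6.21 CPM in NSG wild type, 11.9 and 12.0 CPM in NSG knockout, 34.0 and 34.7 CPM in Balb/c wild type, and 120.2 and 50.9 CPM in Balb/c knockout. Unlike the chains, Ciita was higher in both NSG knockout libraries than in both NSG wild-type libraries.

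H2-DM is the peptide exchange factor. H2-DMa was at 33.9 and 44.0 CPM in NSG wild type, 18.7 and 26.0 CPM in NSG knockout, 45.0 and 64.8 CPM in Balb/c wild type, and 249 and 107 CPM in Balb/c knockout. The Balb/c wild-type parental library was only just above the NSG wild-type vCas9 library. H2-DMb1 was at 14.3 and 14.2 CPM in NSG wild type, 10.2 and 12.1 CPM in NSG knockout, 28.8 and 47.0 CPM in Balb/c wild type, and 185 and 70.8 CPM in Balb/c knockout. Its groups did not overlap.

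The H2-DO chains had few counts in NSG tumors, and H2-Ob was highest in Balb/c wild type. H2-Oa had 8 and 3 counts in NSG wild type and 0 and 2 counts in NSG knockout, and its level was 4.42 and 1.73 CPM in Balb/c wild type and 1.80 and 2.12 CPM in Balb/c knockout. The last 2 groups overlapped. H2-Ob was at 1.04 and 0.75 CPM in NSG wild type, 0.21 and 0.40 CPM in NSG knockout, 35.9 and 8.80 CPM in Balb/c wild type, and 4.55 and 2.63 CPM in Balb/c knockout. Both Balb/c wild-type libraries were above both Balb/c knockout libraries, and the parental library was 4.08-fold above the vCas9 library.

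Per kilobase of coding transcript, the order of mean levels in Balb/c wild type was Cd74 (842 CPM per kb), H2-Aa (674), H2-Ab1 (457), H2-Ea-ps (344), H2-Eb1 (271), H2-DMa (27.4), H2-DMb1 (27.0), H2-Ob (8.38), Ciita (5.72) and H2-Oa (2.83). The DM chains, as neighbours in this order, did not differ beyond their spread. H2-Ob was at 13.5 and 3.30 CPM per kb and Ciita at 5.66 and 5.78, so H2-Ob stood above Ciita in the parental library only. With the length of all annotated exons in place of the coding transcript, Cd74 was again first and the DM and DO chains and Ciita again last, but the order of the classical chains changed, with H2-Ea-ps (344 CPM per kb) above H2-Eb1 (233), H2-Ab1 (216) and H2-Aa (200.3). H2-Ea-ps was above H2-Eb1 by both lengths, while the place of the I-A chains depended on the length used.

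The host comparison asked what differs when the same wild-type lines grow in an immunocompetent mouse. In wild-type tumors, 9 of the 10 genes rose in Balb/c over NSG hosts and H2-DMa did not pass the test. The calls in both host comparisons include H2-Ea-ps, which cells of the NSG host do not express because of their haplotype. Of all genes tested, 31.5% were called, 15.3% as higher in Balb/c. The median log2 fold change of the 10 genes was 1.47, against -0.08 over all genes tested. Both libraries of Balb/c were above both of NSG for all 10 genes, an arrangement found in 35.4% of all genes. Total-count scaling moved the median over all genes to -0.24 and the called genes that were higher from 48.6% to 36.5%, and H2-DMb1 was then not called. RLE scaling moved both the other way, to 0.01 and 57.9%, with 9 of the 10 genes called.

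The I-A chains and the I-E beta chain rose in wild-type tumors, with estimates between 1.44 and 1.46. On the log2 scale H2-Aa rose by 1.46 (SE 0.37, edgeR adjusted p = 0.0236), H2-Ab1 by 1.44 (SE 0.39, adjusted p = 0.0278) and H2-Eb1 by 1.46 (SE 0.37, adjusted p = 0.0234). Cd74 had a value of 1.49 (SE 0.37, adjusted p = 0.0219). H2-Ea-ps was at least 1435-fold higher, computed against 3 counts in the shallower NSG library (edgeR adjusted p = 0.000475). Ciita rose by more than the I-A and I-E beta chains in its estimate, at 2.61 on the log2 scale (SE 0.38, edgeR adjusted p = 0.00419), but the difference between genes was not tested.

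Of the DM and DO chains, all but H2-DMa passed the test. H2-DMb1 rose by 1.42 on the log2 scale (SE 0.43, edgeR adjusted p = 0.0408), whereas H2-DMa had 0.50 (SE 0.39, adjusted p = 0.35). H2-Ob had the largest fitted fold change of the members other than H2-Ea-ps, 4.62 (SE 0.73, adjusted p = 0.00527), and H2-Oa rose by 2.87 (SE 0.74, adjusted p = 0.0242). Without the Balb/c parental library the estimates were 3.28 (adjusted p = 0.0191) for H2-Ob and 2.06 (adjusted p = 0.151) for H2-Oa, and without the Balb/c vCas9 library they were 5.38 and 3.48. Without the NSG parental library the H2-Oa estimate was 3.56 (adjusted p = 0.0916). B cell markers, 8 of 8 of which rose in the same comparison, summed to 1.9 and 3.4 CPM in NSG wild type and 223 and 49.1 CPM in Balb/c wild type, with the parental library the highest as it was for H2-Ob. Their part in the result was not tested.

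These calls rested on few libraries. When the model held a block for each cell line, which pairs its 2 tumors, 3 of the 10 genes were called (Ciita, H2-Ea-ps and H2-Ob, edgeR adjusted p = 0.0197, 0.00819 and 0.0188), with 2073 of all 15310 genes called against 4825 without the block. Under that block the adjusted p was 0.0546 for H2-Aa, 0.0617 for H2-Ab1, 0.0582 for H2-Eb1, 0.0575 for Cd74, 0.0811 for H2-DMb1 and 0.0517 for H2-Oa. Leaving out NSG wild-type replicate 1 left 1 gene called (H2-Ea-ps), leaving out NSG wild-type replicate 2 left 2, leaving out Balb/c wild-type replicate 1 left 3 and leaving out Balb/c wild-type replicate 2 left 4. The calls over all genes fell as well, to 858, 1270, 1289 and 1482 in the same order. In these fits the lone library of a group was assumed to vary like those of the other groups. The counts of members called in this paragraph include H2-Ea-ps, whose absence in the NSG host is set by haplotype.

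Among knockout tumors, all 10 genes rose in Balb/c hosts. Of all genes, 31.1% were called and 15.7% were called higher. The median log2 fold change of the 10 genes was 3.51, against 0.02 over all genes, which total-count scaling moved to -0.17 while the called genes that were higher went from 50.5% to 37.3%. Both Balb/c libraries were above both NSG libraries for all 10 genes, against 32.4% of all genes.

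On the log2 scale H2-Aa rose by 3.54 (SE 0.40, edgeR adjusted p = 0.000991), H2-Ab1 by 3.38 (SE 0.42, adjusted p = 0.00133) and H2-Eb1 by 3.60 (SE 0.40, adjusted p = 0.000942). The value was 3.50 for Cd74 (SE 0.40, adjusted p = 0.000999), 2.99 for H2-DMa (SE 0.42, adjusted p = 0.00214) and 3.52 for H2-DMb1 (SE 0.47, adjusted p = 0.00166). The values of these 6 genes spanned 2.99 to 3.60, and differences between genes were not tested. Without the clone 54 library in Balb/c they spanned 2.23 to 2.81 and all 6 were still called, and the Ciita estimate was 2.06. Ciita rose by 2.84 (SE 0.38, edgeR adjusted p = 0.0017). H2-Ea-ps had 38645 counts against 1, a ratio of 22989 with a 95% counting interval of 4126 to 908044 (edgeR adjusted p = 0.000264).

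The DO chains rested on few counts in this comparison. H2-Oa had 63 counts against 2, a ratio of 18.7 with a counting interval of 4.98 to 158 (edgeR adjusted p = 0.0158), and H2-Ob rose by 3.51 (SE 0.88, adjusted p = 0.0197). H2-Ob was not called without NSG knockout replicate 1 (adjusted p = 0.0973), without NSG knockout replicate 2 (0.0866) or without Balb/c knockout replicate 1 (0.0738). H2-Oa was not called without NSG knockout replicate 1. Under the block by cell line all 10 genes were called.

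**Figure D2:**
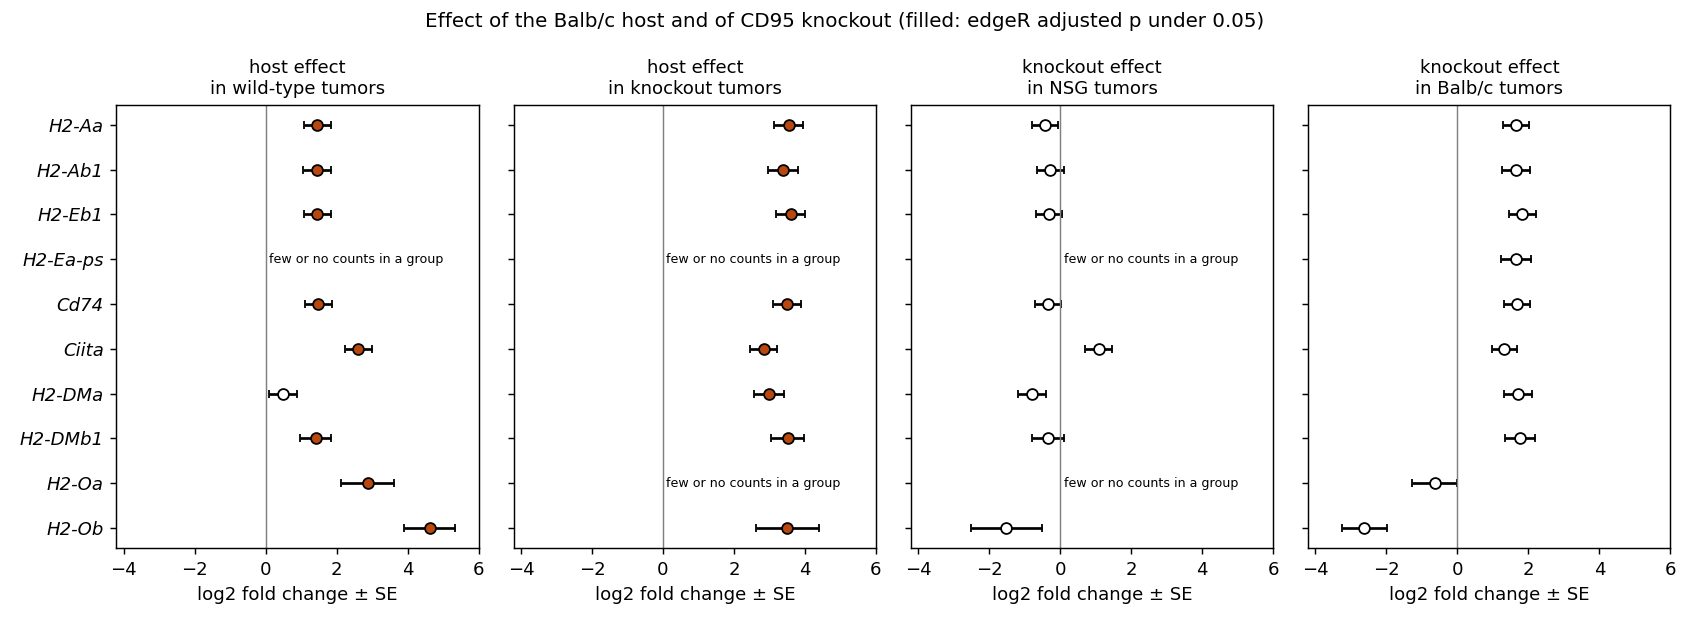
Log2 fold change of each gene (x axis, points with bars of 1 SE) for the Balb/c over the NSG host in wild-type and in knockout tumors and for knockout over wild type in each host. Filled points have an edgeR adjusted p under 0.05. They fill 8 of 9 drawn points in the first panel and all drawn points in the second, and in the knockout panels no point is filled.

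The comparison in NSG mice asked what differs between the CD95 knockout clones and the wild-type lines where mature lymphocytes are missing. None of the 10 genes was called by edgeR (0 of 10, with 1 at an unadjusted p under 0.05) or by DESeq2 (0 of 10). The test called 0.0131% of all genes. On the log2 scale H2-Aa had an estimate of -0.44 (SE 0.37, edgeR adjusted p = 0.606), Cd74 of -0.33 (adjusted p = 0.702) and H2-DMa of -0.80 (SE 0.40, adjusted p = 0.406). Both knockout libraries were below both wild-type libraries for 8 of the 10 genes, against 25.8% of all genes. For H2-Oa this rested on 3 counts in the vCas9 library against 2 in the clone 69 library, at or under the floor. Without the DO chains, both of which have few counts in NSG, it held for 6 of 8 genes. The median log2 fold change of the 10 genes was -0.34, or -0.35 with genes of few counts at their bound.

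Ciita stood on the other side in NSG tumors. It was the 1 member with both knockout libraries above both wild-type libraries, against 26.7% of all genes. Its value was 1.09 on the log2 scale (SE 0.39, edgeR adjusted p = 0.298), and it was the member with an unadjusted p under 0.05. Of the macrophage markers, 9 of 9 had lower estimates in NSG knockout than in NSG wild type, and edgeR called 0 of 9 (4 at an unadjusted p under 0.05) and DESeq2 0 of 9. They summed to 3438 and 3462 CPM in NSG wild type and 1774 and 2310 CPM in NSG knockout. Their part in the values of the class II genes was not tested.

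In Balb/c mice the same comparison gave estimates above 0 for 8 genes and below 0 for both DO chains, but no gene passed the test. edgeR called 0 of 10, with 9 at an unadjusted p under 0.05, and DESeq2 called 9 of 10 (all but H2-Oa). edgeR called 0.176% of all genes and DESeq2 2161 genes. The log2 fold change was 1.65 for H2-Aa (SE 0.37, edgeR adjusted p = 0.057), 1.65 for H2-Ab1 (SE 0.39, adjusted p = 0.0597), 1.83 for H2-Eb1 (SE 0.38, adjusted p = 0.0564) and 1.64 for H2-Ea-ps (SE 0.42, adjusted p = 0.0684). It was 1.68 for Cd74 (SE 0.37, adjusted p = 0.057), 1.32 for Ciita (SE 0.35, adjusted p = 0.0669), 1.70 for H2-DMa (SE 0.40, adjusted p = 0.0586) and 1.75 for H2-DMb1 (SE 0.42, adjusted p = 0.0603). These 8 estimates spanned 1.32 to 1.83, and 0.47 to 0.97 without the clone 54 library. The median over the 10 genes was 1.65, against 0.06 over all genes. Both knockout libraries were above both wild-type libraries for 8 genes, against 32.9% of all genes.

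The DO chains went the other way in their estimates. On the log2 scale the value was -2.62 for H2-Ob (SE 0.63, edgeR adjusted p = 0.0602) and -0.64 for H2-Oa (SE 0.63, adjusted p = 0.512). Over the alternative fits the H2-Ob estimate ran from -3.39 to -1.28. Both knockout libraries of H2-Ob were below both wild-type libraries, against 29.3% of all genes. For H2-Oa the estimate was 0.17 without Balb/c wild-type replicate 1, the parental library, so that its direction rested on that library. B cell markers had lower estimates in knockout tumors for 8 of 8 genes and summed to 8.9 and 13.6 CPM in Balb/c knockout against 223 and 49.1 CPM in Balb/c wild type. edgeR called 0 of the 8 (7 at an unadjusted p under 0.05) and DESeq2 called 7. The part of B cells in the DO values was not tested.

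The knockout clones differed from each other by more than any other pair of replicates for the non-DO genes. Against the mean of the Balb/c wild-type libraries, the clone 54 tumor was 3.50-fold (Ciita) to 5.02-fold (H2-Eb1) higher for these 8 genes, and the clone 69 tumor 1.48-fold (Ciita) to 2.10-fold (H2-Eb1). The clone 54 tumor was 2.25-fold to 2.61-fold above the clone 69 tumor over the same genes. In NSG mice the same 2 clones lay within 1.39-fold of each other for the 7 of these genes above the floor. When the clone 69 library in Balb/c (replicate 2) was left out, edgeR called 8 of the 10 genes and 3886 genes in all. Leaving out any other single library gave 0 of the 10.

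The difference of the knockout effect between hosts was tested as an interaction. edgeR called 0 of the 10 genes, with 6 at an unadjusted p under 0.05, and 0% of all genes, with 3452 at an unadjusted p under 0.05. DESeq2 called 6 of the 10 genes and 968 in all. The estimate was 2.08 for H2-Aa (SE 0.52, edgeR adjusted p = 0.106), 2.14 for H2-Eb1 (adjusted p = 0.101), 2.01 for Cd74 (adjusted p = 0.108) and 2.50 for H2-DMa (SE 0.56, adjusted p = 0.0922). For Ciita it was 0.23 (SE 0.52, adjusted p = 0.818), since its estimate was above 0 in both hosts. H2-Ea-ps allowed no value because NSG tumors were at the floor. Leaving out the clone 69 library in Balb/c gave 6 of the 10 genes called and 2370 in all, and leaving out any other single library gave 0 of the 10. Without the clone 54 library in Balb/c the estimates were 1.21 for H2-Aa, 1.26 for H2-Eb1, 1.19 for Cd74, 1.64 for H2-DMa and -0.64 for Ciita, and without the parental library in Balb/c the H2-Ob estimate turned from -1.11 to 0.23.

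Ratios of counts within a library do not depend on the scaling between libraries. The I-A chains kept their ratio, with H2-Aa over H2-Ab1 between 1.18 and 1.46 in all 8 libraries. H2-Eb1 over H2-Ab1 was 0.784 to 0.820 in the 6 libraries other than Balb/c knockout and 0.912 and 0.963 in Balb/c knockout. H2-Ea-ps over H2-Eb1 was 0.800 and 0.779 in Balb/c wild type and 0.696 and 0.678 in Balb/c knockout. In NSG tumors, 3 counts of H2-Ea-ps would have allowed a ratio of at most 0.00127 to 0.00247, so the I-E pair was read from both its genes in Balb/c tumors only, and H2-Eb1 was read without H2-Ea-ps in NSG tumors.

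Relative to their transactivator the chains differed between groups. Cd74 over Ciita was 81.7 and 69.6 in NSG wild type, 28.3 and 27.9 in NSG knockout, 31.3 and 37.8 in Balb/c wild type, and 43.8 and 45.9 in Balb/c knockout. NSG wild-type tumors thus had the most Cd74 per Ciita count. The same held for H2-Aa over Ciita, at 54.5 and 44.9 in NSG wild type and 16.5 to 27.9 in the other 6 libraries.

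Ratios of the DM chains also separated the hosts. H2-DMa over H2-DMb1 was 2.38 and 3.11 in NSG wild type, 1.84 and 2.14 in NSG knockout, 1.56 and 1.38 in Balb/c wild type, and 1.35 and 1.51 in Balb/c knockout. The Balb/c libraries all lay below the NSG libraries. H2-DMa over Cd74 was 0.056 to 0.102 in NSG and 0.042 to 0.049 in Balb/c libraries. With 2 libraries a group, these ratios were not tested. H2-DMb1 shares sequence with H2-DMb2 and the hosts differ in class II alleles, so read assignment cannot be told apart from expression here.

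**Figure D3:**
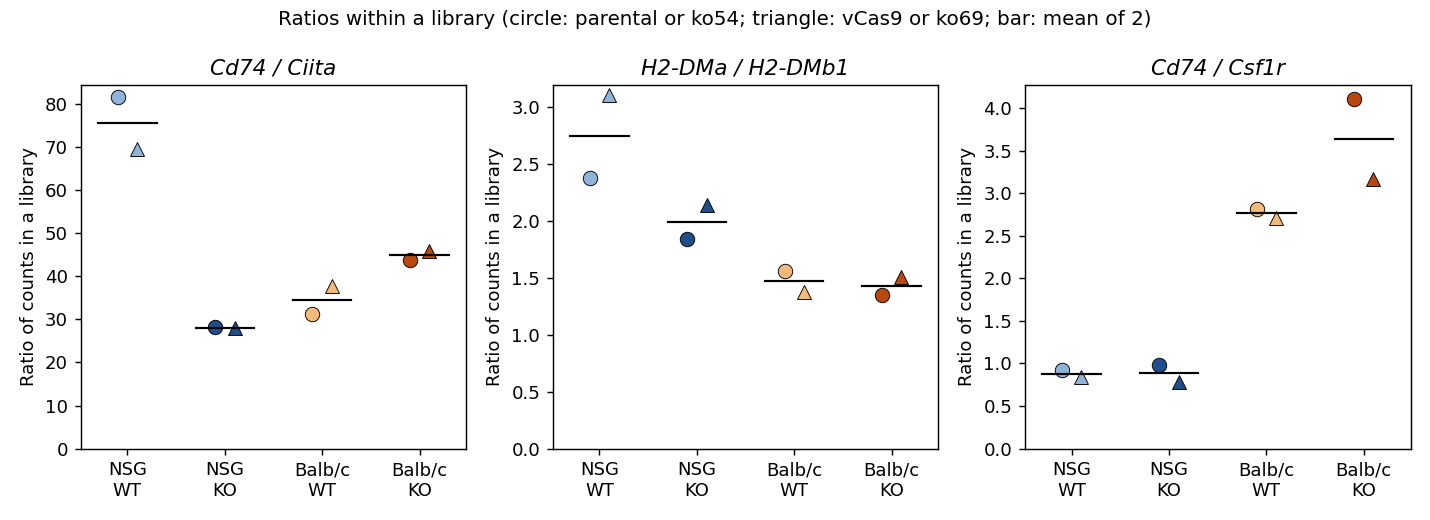
Ratio of counts within a library (y axes start at 0; x axis, the 4 groups; symbols as for lines and clones, bars the mean of 2) for Cd74 over Ciita, H2-DMa over H2-DMb1 and Cd74 over the macrophage receptor gene Csf1r. NSG wild type is highest in the first 2 panels, and every Balb/c library is above every NSG library in the third.

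Class II is expressed by several cell types, so the genes were set beside marker lists. Macrophage markers (9 genes) summed to 3438 and 3462 CPM in NSG wild type, 1774 and 2310 CPM in NSG knockout, 2183 and 2528 CPM in Balb/c wild type, and 10861 and 4431 CPM in Balb/c knockout. Between hosts in wild-type tumors 1 of the 9 rose (Adgre1, the F4/80 antigen), 2 fell (C1qa and Fcgr1) and 6 did not pass, whereas 7 of 9 rose between hosts in knockout tumors. Under the block by cell line the calls were 0 of 9 in wild-type tumors (6 at an unadjusted p under 0.05) and 2 of 9 in knockout tumors.

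Within each library, Cd74 per count of Csf1r, the receptor for the macrophage growth factor CSF1, was 0.784 to 0.982 in the 4 NSG libraries. It was 2.82 and 2.71 in Balb/c wild type and 4.11 and 3.17 in Balb/c knockout. Per count of Adgre1, Cd74 was at 2.25 to 2.84 in NSG, 4.34 and 3.88 in Balb/c wild type, and 6.92 and 3.70 in Balb/c knockout. The host groups did not overlap in either ratio, but Balb/c knockout and wild type overlapped in the ratio to Adgre1. The place of Balb/c knockout depended on the macrophage marker used. Per count of C1qa or C1qc, Cd74 was lower in both Balb/c knockout libraries than in both wild-type libraries. Per count of Mertk or Fcgr1 it was higher in both, as for Csf1r. For C1qb, Mrc1 and Cd68 those groups overlapped. Every Balb/c library was above every NSG library with each of these markers. Per count of the pan-leukocyte gene Ptprc (CD45), the order was another one. Cd74 over Ptprc was 0.940 and 1.01 in NSG wild type, 0.753 and 0.997 in NSG knockout, 0.491 and 0.714 in Balb/c wild type, and 3.75 and 1.41 in Balb/c knockout. By this ratio Balb/c wild type was the lowest group and Balb/c knockout the highest, without overlap.

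Dendritic cell markers (7 genes) summed to 84.5 to 138 CPM in NSG and 391 to 534 CPM in Balb/c tumors. Between hosts 5 of 7 rose in wild-type tumors (3 under the block by cell line) and 6 of 7 in knockout tumors. Balb/c wild type (479 and 401 CPM) and knockout (534 and 391 CPM) overlapped, unlike the summed class II level. Single markers differed from this sum. Both knockout libraries were above both wild-type libraries for 3 of the 7, against 32.9% of all genes, and below them for 1, against 29.3%. T cell markers rose for 4 of 4 found genes in both host comparisons, and pan-leukocyte markers for 4 of 5 and 5 of 5. Knockout against wild type called 0 macrophage and 0 dendritic cell markers by edgeR in either host, while DESeq2 called 8 of 9 and 2 of 7 in Balb/c. In Balb/c, 9 of 9 macrophage markers had higher estimates in knockout tumors (median log2 fold change 1.36, 9 at an unadjusted p under 0.05). Markers of the 4T1 epithelium (6 genes) summed to 592 to 2984 CPM, with both extremes in Balb/c knockout, where clone 54 was the lowest and clone 69 the highest. The part of any of these cell types in the class II values was not tested.

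**Figure D4:**
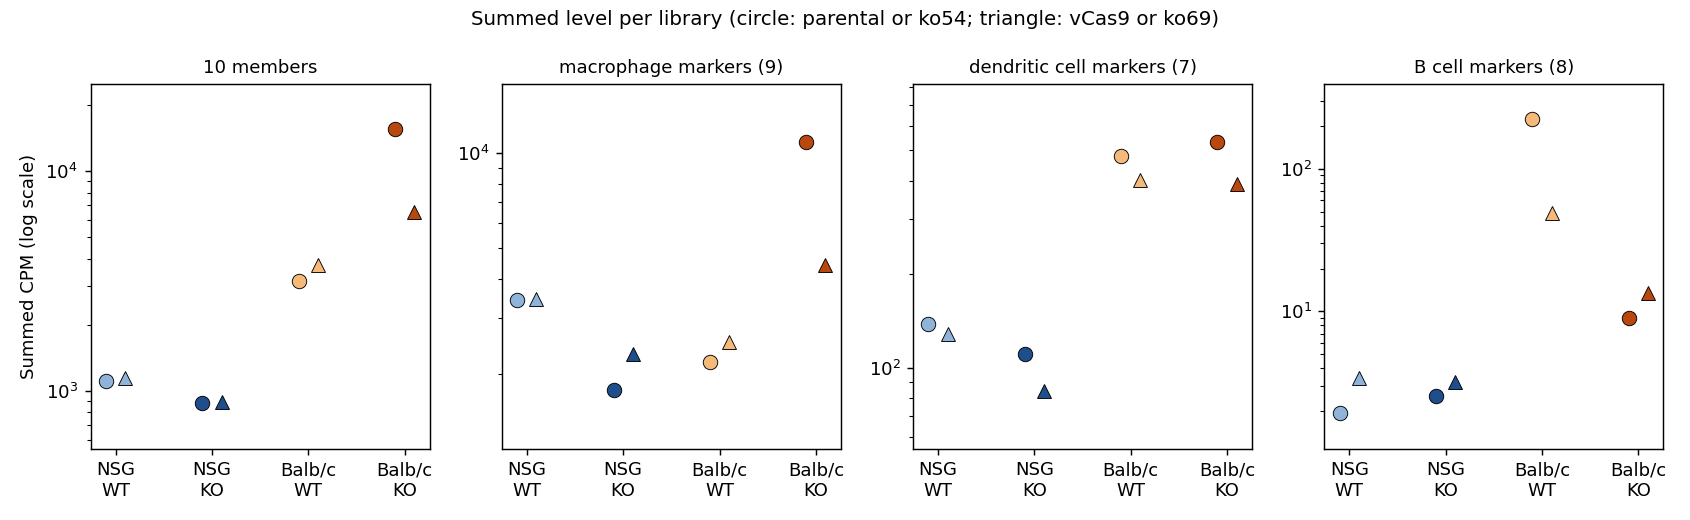
Summed level in each library (y axis, CPM on a log scale; x axis, the 4 groups; symbols as for lines and clones) of the 10 class II genes and of macrophage, dendritic cell and B cell markers. The class II sum is highest in the Balb/c clone 54 tumor (15510 CPM), where the macrophage sum is also highest (10861 CPM), while B cell markers are highest in the Balb/c parental tumor (223 CPM).

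Other genes of the pathway were taken from a list of 28, all of which were tested. The list includes Ifng, Cd4 and Lag3, whose host differences cannot be told apart from the lack of mature T and NK cells in NSG. In wild-type tumors 11 of the 28 rose between hosts and 0 fell, where 15.3% of all genes were called higher, and in knockout tumors 19 rose and 0 fell, where 15.7% of all genes were called higher. Under the block by cell line 8 and 15 of the 28 rose. Leaving out 1 library at a time gave 4 to 12 genes that rose in wild-type tumors, with the fewest without the NSG parental library, 6 without the NSG vCas9 library and 7 without the Balb/c parental library. In knockout tumors 14 to 18 rose. Knockout against wild type called 0 of the 28 by edgeR in NSG (4 at an unadjusted p under 0.05, and 2 called by DESeq2) and 0 of the 28 in Balb/c (11 at an unadjusted p under 0.05, and 8 called by DESeq2). Without the clone 69 library in Balb/c, edgeR called 10 of the 28 for the knockout effect in that host, 9 of them higher.

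On the side of the inducing signal, 6 of 7 genes rose in wild-type tumors (4 under the block by cell line) and 5 of 7 in knockout tumors (4 under the block). Ifng, the cytokine itself, had 0 counts in all 4 NSG libraries, with levels of 3.31 and 6.31 CPM in Balb/c wild type and 17.5 and 12.3 CPM in Balb/c knockout. Computed against 3 counts, it was at least 19.4-fold higher in the Balb/c than in the NSG tumors of wild-type lines and at least 46.4-fold higher in those of knockout lines. Both Balb/c knockout libraries were above both wild-type libraries, by 1.62 on the log2 scale (SE 0.43, edgeR adjusted p = 0.0763). The receptor chain Ifngr1 rose by 1.22 (SE 0.18, edgeR adjusted p = 0.00399) and 1.54 (SE 0.18, adjusted p = 0.00104) in wild-type and knockout tumors. Irf1, a factor that acts on the Ciita promoter, rose by 2.24 (SE 0.34, adjusted p = 0.00448) and 2.76 (SE 0.34, adjusted p = 0.00134). The kinase genes Jak1 and Jak2 were called in wild-type tumors (0.99 and 0.92) and the receptor chain Ifngr2 in knockout tumors (0.77), but these 3 calls were lost under the block.

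The factors bound to the X and Y boxes were not called where Ciita was. None of the 7 genes for RFX, NF-Y and CREB subunits (Rfx5, Rfxap, Rfxank, Nfya, Nfyb, Nfyc and Creb1) was called by edgeR or DESeq2 in either host comparison, and 0 of them had an unadjusted p under 0.05 with edgeR. Their median log2 fold change was 0.03 in wild-type and 0.03 in knockout tumors.

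Genes for lysosomal processing were called between hosts in knockout tumors. Of Ctss, Ctsl, Ctsb, Ctsd, Lgmn and Ifi30, 0 of 6 were called between hosts in wild-type tumors (edgeR, 0 at an unadjusted p under 0.05, 0 called by DESeq2, median log2 fold change -0.09). All 6 rose in knockout tumors (median 1.58), of which Lgmn and Ifi30 were not called under the block by cell line. Ctss encodes cathepsin S, which cleaves the invariant chain. It was at 760 and 766 CPM in NSG wild type, 471 and 420 CPM in NSG knockout, 728 and 997 CPM in Balb/c wild type, and 5105 and 2073 CPM in Balb/c knockout. The wild-type groups overlapped, and in knockout tumors Ctss rose by 3.01 (SE 0.43, edgeR adjusted p = 0.00228). The knockout effect in Balb/c was 2.06 (SE 0.42, edgeR adjusted p = 0.0564).

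March1, whose ubiquitin ligase removes class II from the surface, rose by 1.30 (SE 0.28, edgeR adjusted p = 0.014) and 2.15 (SE 0.29, adjusted p = 0.00175) between hosts. The paralog H2-DMb2 rose by 1.23 (SE 0.40, edgeR adjusted p = 0.0481) and 2.52 (SE 0.42, adjusted p = 0.00383). In Balb/c tumors H2-DMb2 was at 45.8 and 29.0 CPM in wild type and 77.6 and 36.0 CPM in knockout, which overlapped, whereas H2-DMb1 did not overlap. H2-Eb2 was at 2.89 CPM or less in every library, did not pass in wild-type tumors (adjusted p = 0.194) and had 33 counts against 1 between hosts in knockout tumors (edgeR adjusted p = 0.0296). The calls of H2-DMb2 in wild-type and of H2-Eb2 in knockout tumors were lost under the block by cell line.

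On the side of the responding T cell, the class II receptors Cd4 and Lag3 both rose between hosts. NSG hosts lack mature T and NK cells, and these rises cannot be told apart from that lack. Cd4 had log2 fold changes of 3.19 (SE 0.46, edgeR adjusted p = 0.00405) and 3.62 (SE 0.48, adjusted p = 0.00174), and Lag3 of 3.32 (SE 0.48, adjusted p = 0.00393) and 3.53 (SE 0.48, adjusted p = 0.00191). Of the costimulatory genes, Cd80 rose in wild-type tumors by 2.32 (SE 0.39, edgeR adjusted p = 0.00657), and Cd40, Cd80 and Cd86 all rose in knockout tumors, by 1.88, 2.50 and 1.74.

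Across the 8 libraries the members varied together to different degrees. The correlation of a gene's log2 CPM with the mean of the standardised values of the others, given as a description over 8 libraries that share hosts and lines, was 0.984 for H2-Aa, 0.979 for H2-Ab1, 0.976 for H2-Eb1, 0.981 for Cd74, 0.967 for H2-DMb1 and 0.960 for H2-Ea-ps. It was 0.917 for Ciita, 0.905 for H2-DMa, 0.817 for H2-Oa and 0.689 for H2-Ob. Of 11431 other genes averaging at least 5 CPM, the 8 whose pattern was most like the mean of the members were Spi1 (r = 0.992), Gnpda1 (0.992), Arhgef6 (0.990), Alg12, Ipmk, Serpina3g, Ostm1 and Dok2 (0.985). Serpina3g had mean levels of 8.45 CPM in NSG wild type, 5.86 CPM in NSG knockout, 45.9 CPM in Balb/c wild type and 186 CPM in Balb/c knockout. Spi1, which encodes the myeloid and B cell factor PU.1, had means of 72.1, 65.1, 111 and 144 CPM in the same order, a narrower span.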

How the data were processed

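RNA from tumors was sequenced in 8 libraries after miRNeasy extraction with DNase and Illumina library preparation, per the labels' protocols. Each deposited file gave the raw counts of 1 library by Ensembl gene, per the file headers. The submitters' processing notes name cutadapt 1.13, STAR, HTSeq 0.6.1p1 and DESeq2, and the builds mm10 and hg19, without roles. The annotation and strand setting are not given in the sources used here, so antisense and overlapping genes are uncertain. Symbols were found for 24942 of 25006 identifiers.

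The 10 members, the pathway genes and the marker lists were chosen with earlier results of these data known. Named genes other than members were the listed pathway genes past the threshold, Ifng, the 2 paralogs, Fas and the 8 most alike genes. Markers set beside them come from the lists of cell types. Single values of a few listed genes are not reported here. Trac was not found, so the T cell list had 4 of 5 genes.

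The tests used edgeR 4.0.16 under R 4.3.3 (TMM, filterByExpr, glmQLFit and glmQLFTest). All 8 libraries entered 1 model of 4 group means with 4 residual degrees of freedom. P-values were adjusted by Benjamini and Hochberg over 15310 genes. Standard errors follow from the estimate and its F statistic. CPM were computed here from the deposited counts. Some genes had at most 3 counts summed over the libraries of a group. For these a lower bound against 3 counts or the ratio of summed counts with a 95% exact counting interval stands for the fold change. These bounds and intervals cover counting error only and leave out the spread between libraries. No molecular identifiers are stated. The procedure was tested on simulated data. Alternatives were RLE and total-count scaling, no filter, DESeq2 1.42.0, each library left out, only the 4 libraries compared and the cell line as a block.

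Same-numbered libraries of the 2 hosts held the same cell line, per the labels, which pairs them. The difference between the 2 lines of a genotype correlated between hosts with r = 0.087 over 15310 genes for the wild-type lines and -0.35 for the clones. Labels give no batch or date.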

Additional observations from a re-analysis of the deposited data

How the results depend on the processing

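Of 614 values of single members under an alternative, without those given as bounds or ratios of counts, 528 kept their direction and their side of the threshold, 38 lost their call (35 between hosts in wild-type tumors and 3, all of H2-Ob, between hosts in knockout tumors), 45 gained one (26 of the knockout effect within Balb/c and 19 of its difference between hosts) and 3 turned around. The latter were H2-Oa for the knockout effect in Balb/c without the Balb/c parental library (range over single libraries left out -1.26 to 0.17), and, for the difference between hosts, Ciita without the Balb/c clone 54 library (-0.64 to 0.73) and H2-Ob without the Balb/c parental library (-1.87 to 0.23), none of them called. The cause of these changes was not tested.

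The replicate block by cell line reduced the genes called between hosts from 4825 to 2073 (members from 9 to 3) in wild-type tumors and from 4757 to 2878 in knockout tumors, where all 10 members stayed called. For the difference between hosts it called 0. Among members it changed no other call, and the calls of pathway genes and markers that it ended are given beside their results, apart from B cell markers (from 8 to 7 of 8 in wild-type tumors) and pan-leukocyte markers (from 5 to 4 of 5 in knockout tumors). No paired analysis was possible for the knockout effect within a host because each line belongs to 1 genotype. Because the clones' difference correlated negatively between hosts, a crossed pairing was added after seeing the data and called 307 genes (1 member, H2-DMa) for the difference between hosts, 5733 in wild-type and 5436 in knockout tumors.

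Leaving out 1 library at a time gave 858 to 6361 genes (1 to 9 members) between hosts in wild-type tumors, 2461 to 4640 (8 to 10 members) in knockout tumors, 0 to 1 for the knockout effect in NSG, 0 to 3886 (0 to 8 members) for that of Balb/c, and 0 to 2370 (0 to 6 members) for the difference. The fit of only the 4 libraries compared called 6838 genes (9 members) between hosts in wild-type tumors, 2450 between hosts in knockout tumors, 1 gene for the knockout effect in NSG and 0 in Balb/c. Without a filter the counts were 133 genes for the knockout effect in NSG, 1774 (9 members) in Balb/c and 674 (6 members) for the difference, and with DESeq2 they were 339, 2161 (9 members) and 968 (6 members). RLE scaling called 94 genes for the knockout effect in Balb/c, against 27. H2-Oa and H2-Ob in NSG are limited by counts of 15 or fewer a library.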

Other observations

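Lysosomal processing genes had the same order of groups as macrophage markers in NSG tumors. In NSG knockout all 6 had lower estimates than in NSG wild type, with a median log2 fold change of -0.69, and edgeR called 0 of 6 (2 at an unadjusted p under 0.05) while DESeq2 called 1 (Ctsd). Lgmn, which encodes the asparaginyl endopeptidase, was at 1010 and 955 CPM in NSG wild type, 479 and 580 CPM in NSG knockout, 540 and 614 CPM in Balb/c wild type, and 1805 and 800.1 CPM in Balb/c knockout. Ifi30, the lysosomal thiol reductase, was at 203 and 198 CPM, 102 and 140 CPM, 115 and 147 CPM, and 510 and 219 CPM in the same order of groups. Between hosts in wild-type tumors neither gene passed the test (edgeR adjusted p = 0.132 for Lgmn and 0.228 for Ifi30). The 2 genes were chosen from the 6 after their values were seen.

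H2-Eb2, a paralog of H2-Eb1, had 21 counts in NSG wild type and 1 in NSG knockout, a ratio of 15.4 with a counting interval of 2.47 to 636 (edgeR adjusted p = 0.268). Cd86, the costimulatory ligand of CD28, was at 81.0 and 77.7 CPM in NSG wild type and 33.9 and 24.9 CPM in NSG knockout (edgeR adjusted p = 0.117, called by DESeq2), whereas the Balb/c groups overlapped at 114 and 92.2 CPM in wild type and 113 and 83.7 CPM in knockout.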
